A study of Mus musculus with 6 samples.

Results

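The genes described here are 45 type I interferon response genes, chosen by name as transcripts that type I interferon is known to induce. The choice was made with earlier results of these data known. Of the 45, 44 were among the 31053 features measured, and Mx2 was not. Type I interferons bind a receptor of the subunits Ifnar1 and Ifnar2, whose kinases activate Stat2 among other factors. With Irf9 it is part of a complex that binds the interferon-stimulated response element, and the induced products block viral replication. In the spleen, part of this program is also known to run at a low, tonic level in resting lymphocytes and in myeloid cells without infection.

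The study asked what loss of 1 copy of Smc3, a subunit of the cohesin ring, does to germinal center (GC) B cells, and profiled sorted splenic cells of mice 8 days after immunization with sheep red blood cells. Of 6 single-cell libraries, 3 were Smc3 wt/wt (WT Control in the labels) and 3 Smc3 wt/- (Smc3 +/- in the labels). Mice of both labels carried Cγ1-Cre, which acts in B cells entering the GC reaction, so T cells, myeloid cells and naive B cells of the wt/- libraries are not where the deletion is directed. The study's methods count mice per genotype, but neither they nor the labels tie mice to these libraries, and p-values measure only the spread between these libraries.

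After filtering, 20847 cells remained, with 4742447 to 33176732 unique molecular identifiers (UMIs, 1 for each captured transcript molecule) per library. Cells were grouped by clustering on genes that left out 119 listed genes, the measured members and other genes of the interferon pathway. Interferon-induced genes outside this list were not left out. This gave 11709 cells called GC B-like, 1806 called naive or memory B-like, 2071 plasma-lineage cells, 529 T cell-like cells and 740 myeloid-like cells. A further 3992 cells, led by haemoglobin genes, were left unnamed. Cd79a was detected in 99.3% of GC B-like cells and in 6.99% of T cell-like cells, Cd3e in 79.0% of T cell-like and 0.171% of GC B-like cells, and Lyz2 in 81.8% of myeloid-like and 0.957% of GC B-like cells. The median depth was 6357 UMIs in GC B-like, 2398 in naive or memory B-like, 1645 in T cell-like and 2774.5 in myeloid-like cells. No cluster was named plasmacytoid dendritic cell, a main source of type I interferon, and its marker Siglech was at 0 outside the myeloid-like class.

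The library Smc3 wt/- replicate 2 stood apart. In it 59.4% of UMIs came from immunoglobulin genes, where the range elsewhere was 2.61% to 4.40%, and it held 1747 of the 2071 plasma-lineage and 639 of the 740 myeloid-like cells. Its cells in the GC B-like class had a summed GC marker level of 1439 CPM (UMI counts scaled to a common library total), against 3237 to 3831 in the other libraries, and a summed naive or memory B marker level of 1051 CPM against 266 to 321, with all 15 and 10 markers of these lists detected in each library. Smc3 itself was at 162 to 174 CPM in GC B-like cells of the wt/wt libraries and at 160, 123 and 181 CPM in those of the wt/- libraries, which overlap. The deletion was directed at exon 4, whereas 3′ tags come from near the transcript's end. Whether this level reads the deleted part was not tested. Of the 22939 cell barcodes, 276 occurred in more than 1 library, and between 4 and 43 cell barcodes were shared by any pair of libraries.

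In naive or memory B-like, T cell-like and myeloid-like cells most of the interferon response genes that could be tested were higher than in GC B-like cells. The comparison was made across the 6 libraries on UMIs summed per class, with edgeR and library as a term, over 8008 genes at an adjusted p of 0.05. A level here is a share of a class's UMIs, not an amount per cell, and the classes differ in depth. The share of cells with a UMI can go either way. It was 10.4% of GC B-like and 7.42% of naive or memory B-like cells for Stat2, 76.4% and 48.1% for Samhd1, and 5.07% and 44.1% for Ifi203. Of the 44 measured members, 35 passed the filter on low counts. A member that passed through the class where it is high had to differ, so the counts that follow describe those 35 and not the members as a whole. The members were also chosen with earlier results of these data known, so these counts are a description and not a test of the list. Against GC B-like cells, 33 of 35 were higher and 0 lower in naive or memory B-like cells, where 27.8% of all genes were called higher and 24.6% lower. In T cell-like cells 29 were higher and 0 lower, against 20.6% and 23.9% of all genes. In myeloid-like cells 30 were higher and 0 lower, against 20.4% and 28.8%. Only 9 of these 30 were higher in all 6 libraries, against 30 of the 33 and 25 of the 29. In cells without markers of another lineage the number called in myeloid-like cells was 23. The lowest library then had 9 myeloid-like cells, under the limit of 10, and its sum for that class did not enter. The median log2 fold changes of the members were 2.03, 2.91 and 2.33 in these classes, and those of all genes tested were 0.05, -0.08 and -0.20. The members that were not called in naive or memory B-like cells were Irf7 and Ifi204.

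Plasma-lineage cells differed from this pattern, with 5 members higher and 6 lower than in GC B-like cells, where 22.8% of all genes were higher and 26.1% lower. The median log2 fold change was 0.04 for the members and -0.07 for all genes. The 5 higher were Bst2, Isg15, Zbp1, Ifi204 and Ifi213, and the 6 lower were Ifi206, Ifi209, Oas1a, Phf11b, Slfn2 and Sp100. Without Smc3 wt/- replicate 2, 10 members were higher, among them the same 5, and 4 were lower. Ifi209, Phf11b and Sp100 were the 3 that stayed lower without Smc3 wt/wt replicate 2. The 9 members not tested, Ifit2, Ifit3b, Oasl1, Oas2, Oas3, Mx1, Phf11d, Ifi44 and Rsad2, gave from 2 to 169 UMIs each over the GC B-like cells.

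**Figure D1:**
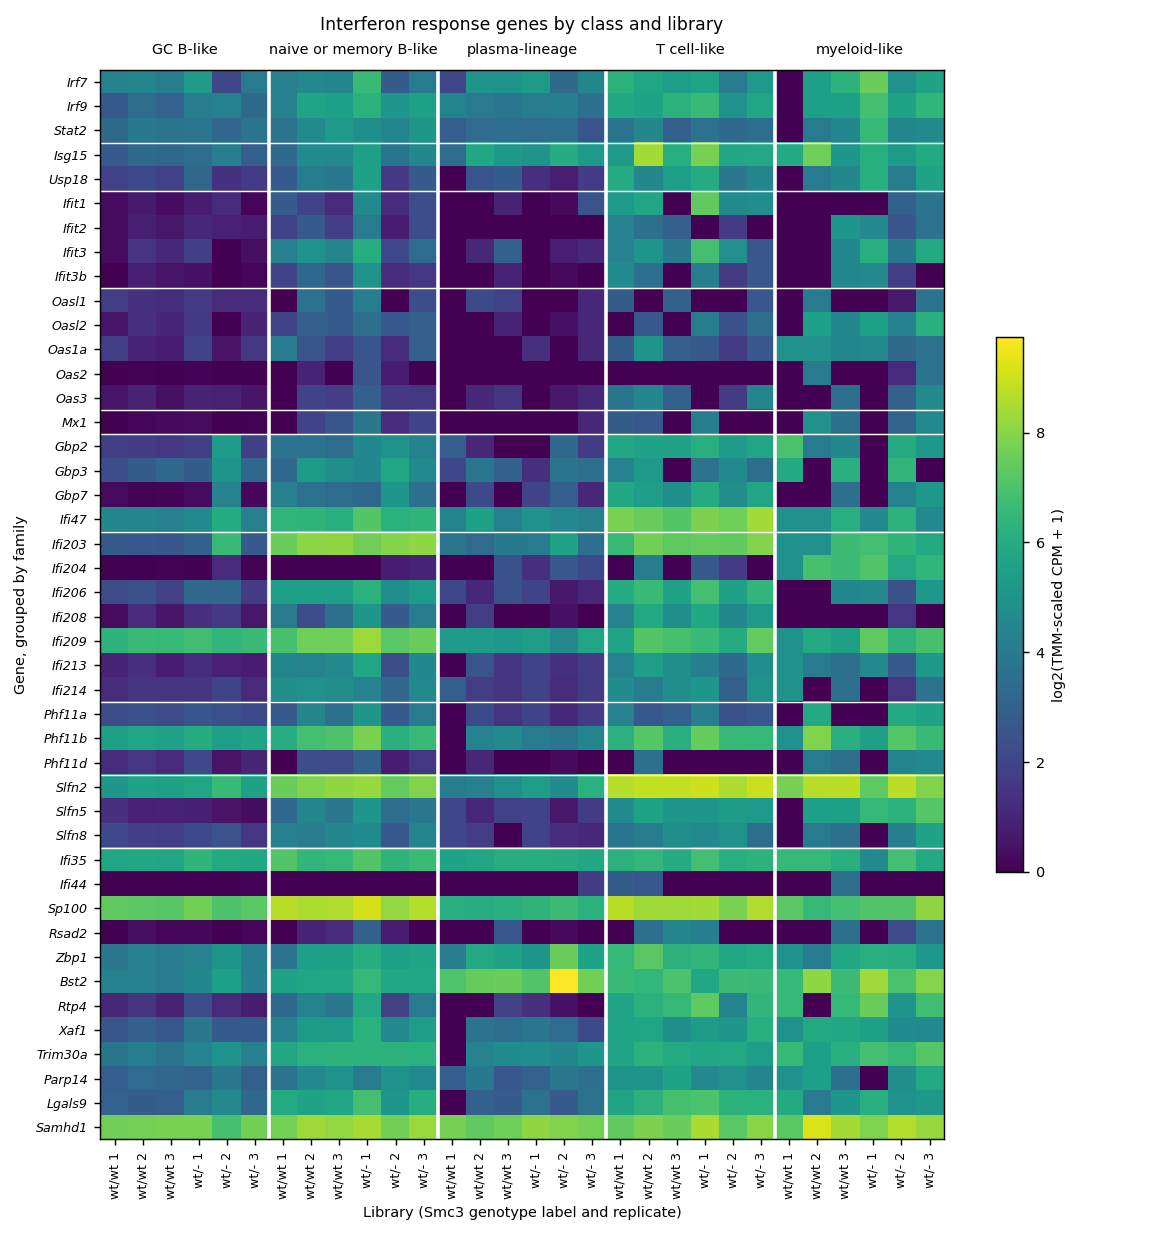
Level of each of the 44 measured interferon response genes in each class and library, as log2 of TMM-scaled CPM plus 1. Rows are grouped by family and columns by class, and the myeloid-like column of Smc3 wt/wt replicate 1 rests on 13 cells.

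**Figure D2:**
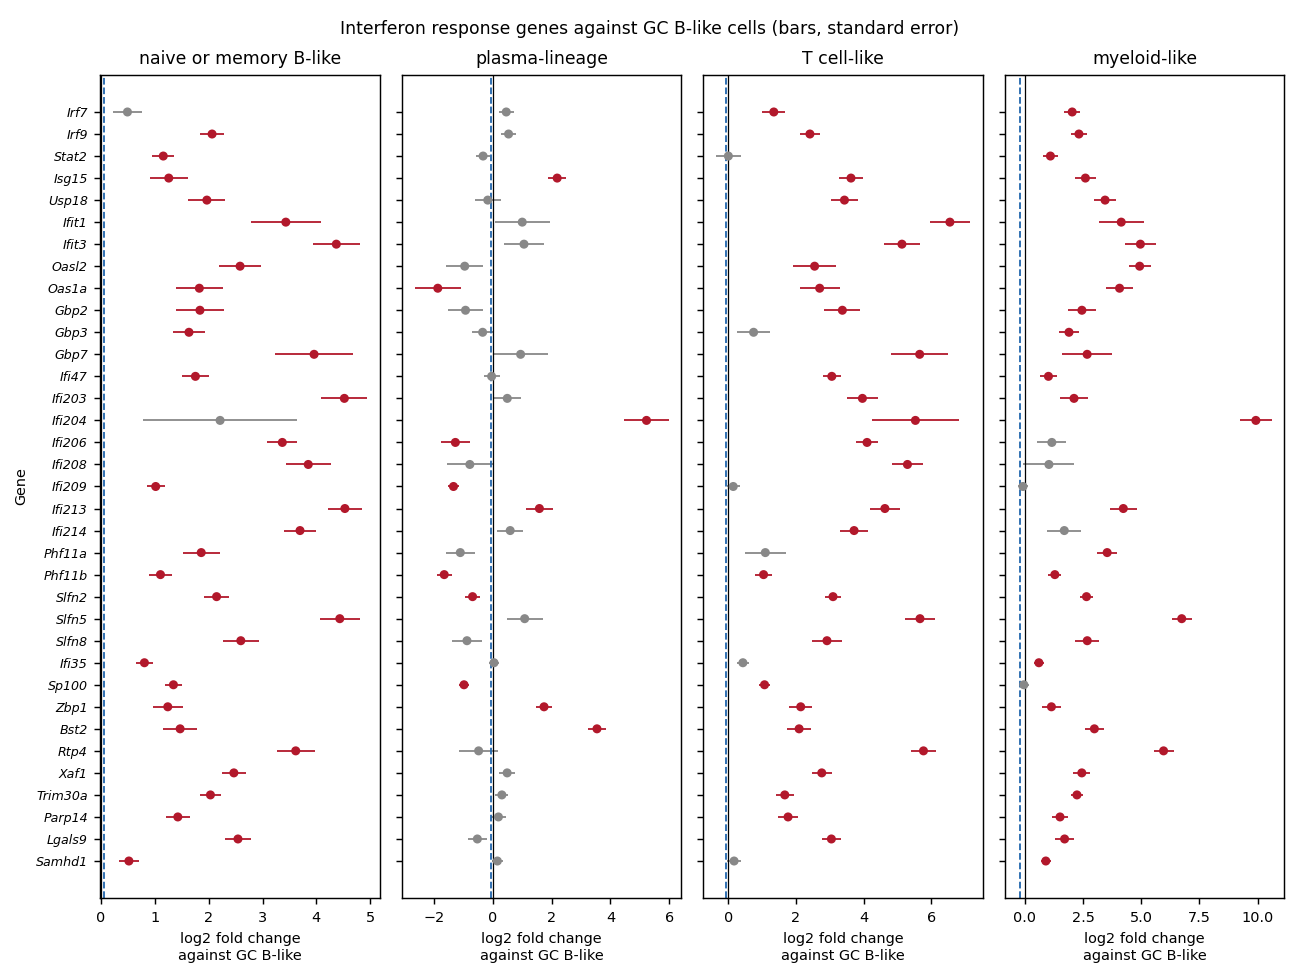
Log2 fold change of the 35 tested members in each class against GC B-like cells, with standard errors from the fit over all classes and libraries. Red points passed the adjusted p of 0.05 and grey points did not, the dashed line is the median of all 8008 genes, and each panel has its own horizontal scale.

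Of the transcription factors that carry the signal, Irf9 and Stat2 were higher in naive or memory B-like than in GC B-like cells, and Irf7 did not pass the test. Irf9, the DNA-binding subunit of the interferon-activated complex, was at 5.75 to 18.4 CPM in GC B-like cells, with a median of 9.57, and at 17.9 to 75.6 CPM in naive or memory B-like cells, with a median of 44.5. Its lowest naive or memory library lay just under its highest GC B-like library, and within every library it was higher in the naive or memory class (log2 fold change 2.06, SE 0.22, adjusted p = 5.65e-09). It was also higher in T cell-like cells (2.41, SE 0.29) and myeloid-like cells (2.33, SE 0.33).

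Stat2, which carries the activating domain of that complex, had a median of 12.7 CPM in GC B-like and 25.9 CPM in naive or memory B-like cells (log2 fold change 1.16, SE 0.21, adjusted p = 2.55e-05). In T cell-like cells its log2 fold change was -0.00 (SE 0.36, adjusted p = 0.998). In myeloid-like cells it was 1.10 (SE 0.34, adjusted p = 0.00692), a call lost under 5 of the alternatives tried, among them leaving out Smc3 wt/- replicate 1 (0.47, adjusted p = 0.263), in which Stat2 stood at 91.4 CPM against 0 to 23.9 CPM elsewhere.

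Irf7, the factor that amplifies interferon production, ran in GC B-like cells from 3.34 to 40.8 CPM with a median of 17.0, and in naive or memory B-like cells from 6.15 to 96.2 CPM with a median of 19.3. The ranges overlapped, and the log2 fold change of 0.49 (SE 0.27) did not pass the test (adjusted p = 0.119). It was higher in T cell-like cells (1.34, SE 0.34, adjusted p = 0.00154) and in myeloid-like cells (2.04, SE 0.35, adjusted p = 1.6e-05). The call in T cell-like cells was lost with at least 1000 detected genes per cell (0.58, adjusted p = 0.327), and without a library term neither call held. Whether Irf7 differed from Irf9 and Stat2 was not tested.

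Isg15, the ubiquitin-like modifier, and Usp18, the protease that removes it and restrains the receptor, were both higher than in GC B-like cells in naive or memory B-like, T cell-like and myeloid-like cells. Isg15 was at 5.52 to 17.1 CPM in GC B-like cells, at 8.96 to 44.7 CPM in naive or memory B-like cells and at 37.9 to 333 CPM in T cell-like cells. The log2 fold changes were 1.26 (SE 0.35, adjusted p = 0.00309) and 3.62 (SE 0.35, adjusted p = 3.8e-10). The first was lost without Smc3 wt/- replicate 1 (0.81, adjusted p = 0.0886). Usp18 had a median of 2.74 CPM in GC B-like and 9.70 CPM in naive or memory B-like cells, with log2 fold changes of 1.97 (SE 0.34), 3.43 (SE 0.40) and 3.45 (SE 0.48) in naive or memory B-like, T cell-like and myeloid-like cells.

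In plasma-lineage cells Isg15 rose while Usp18 did not pass the test. Isg15 was at 9.91 to 64.4 CPM with a median of 36.0, higher than in GC B-like cells within each of the 6 libraries (log2 fold change 2.19, SE 0.31, adjusted p = 5.77e-07). Usp18 was at 0 to 6.18 CPM, with a log2 fold change of -0.17 (SE 0.45, adjusted p = 0.785).

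The IFIT proteins bind viral RNA that lacks the host cap modification. Ifit3 was among the members nearest to 0 in GC B-like cells, at 0 to 2.62 CPM with a median of 0.726. In naive or memory B-like cells it stood at 3.41 to 67.0 CPM with a median of 19.3, and the ranges did not overlap (log2 fold change 4.37, SE 0.44, adjusted p = 1.16e-09). Ifit1 followed the same direction in naive or memory B-like (3.43, SE 0.65), T cell-like (6.55, SE 0.60) and myeloid-like cells (4.14, SE 0.96). The last rested on 12 UMIs, 11 of them from Smc3 wt/- replicate 2, was above GC B-like cells in 2 of 6 libraries, and was lost without that library and in cells without markers of another lineage. Ifit2 and Ifit3b were not tested, and reads of Ifit3 and Ifit3b are uncertain because these genes are close copies.

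The oligoadenylate synthetases make the messenger that activates RNase L. Oas1a was at 0.418 to 2.92 CPM in GC B-like and at 9.43 to 30.2 CPM in myeloid-like cells, with no overlap (log2 fold change 4.07, SE 0.57, adjusted p = 5.24e-07). Oasl2, of the same family, rose in the same comparison (4.93, SE 0.47). In plasma-lineage cells Oas1a was listed at 0 in 4 of 6 libraries and at 1.47 CPM at most. Its fall (-1.87, SE 0.79, adjusted p = 0.0488) lay at the threshold and was lost under 9 of the alternatives tried.

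The guanylate-binding proteins and Ifi47 are GTPases that act against intracellular pathogens. Ifi47 was at 18.0 to 63.9 CPM in GC B-like, 67.2 to 141 CPM in naive or memory B-like and 138 to 333 CPM in T cell-like cells. Neither class overlapped GC B-like cells, with log2 fold changes of 1.75 (SE 0.25, adjusted p = 5.81e-07) and 3.06 (SE 0.26, adjusted p = 2.66e-11). Gbp7 was at 26.9 to 62.4 CPM in T cell-like cells (log2 fold change 5.66, SE 0.84, adjusted p = 1.73e-06). In GC B-like cells it was at 0.0369 to 0.23 CPM in 5 libraries and at 19.2 CPM in Smc3 wt/- replicate 2, the library whose GC B-like cells had the higher naive or memory B marker level. The part of those cells in the value was not tested.

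The PYHIN family includes DNA sensors, and its 7 genes among the members lie on mouse chromosome 1 (GRCm38, chr1:173468485-173942672). In naive or memory B-like cells 6 of these 7 were higher than in GC B-like cells, against 27.8% of all genes. Ifi203 was at 185 to 276 CPM in naive or memory B-like cells, and at 5.17 to 6.89 CPM in 5 of the GC B-like libraries. In GC B-like cells of Smc3 wt/- replicate 2 it was at 92.7 CPM. The log2 fold change was 4.52 (SE 0.43, adjusted p = 3.66e-10). Ifi213 gave the largest fold change of the tested members in that class, from 0.698 to 1.55 CPM in GC B-like to 4.10 to 55 CPM in naive or memory B-like cells (4.53, SE 0.32, adjusted p = 2.24e-12).

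Within the family the classes differed. Ifi204 was at 30.2 to 137 CPM in myeloid-like cells and with 5 UMIs in all GC B-like cells (log2 fold change 9.92, SE 0.68, adjusted p = 9.24e-14). Its 36 UMIs in plasma-lineage cells passed the test too (5.23, SE 0.76, adjusted p = 7.56e-07). Lyz2, a myeloid gene, was detected in 13.8% of plasma-lineage cells, whose median depth was 14786 UMIs. The summed level of 19 myeloid markers in them was 768 CPM in Smc3 wt/- replicate 2, with all 19 detected. Elsewhere it was 259 to 310 CPM, with 5 to 11 detected. Ifi204 was also called higher when cells with markers of another lineage were left out. The part of myeloid transcripts in its value was not tested. Ifi208 was at 18.9 to 59.1 CPM in T cell-like cells (5.29, SE 0.46, adjusted p = 3.11e-11) and at 0 in 5 of 6 myeloid-like libraries. The myeloid-like sums outside Smc3 wt/- replicate 2 held only 17369 to 81277 UMIs. T cell-like and myeloid-like cells were not compared with each other. Ifi209 was already at 77.5 to 108 CPM in GC B-like cells. It was higher in naive or memory B-like cells (1.02, SE 0.17), lower in plasma-lineage cells (-1.34, SE 0.18, adjusted p = 3.19e-07) and at 0.14 (SE 0.20, adjusted p = 0.596) in T cell-like cells.

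The promoters of 5 of these 7 genes shared a motif, and they are shown because all 5 were higher in naive or memory B-like than in GC B-like cells. Ifi209, whose window held no core, was higher there too, and in plasma-lineage cells Ifi213 was called higher and Ifi206 lower. Ifi204 had no promoter window, and Ifi203 had 2, of which the first held 0 cores. The motif searched was the core of the interferon-stimulated response element, GAAANNGAAA on either strand, in RefSeq promoter windows (GRCm38.p6) from 250 bases before to 50 after a gene's start. The core is in capitals, each line is 50 bases read 5′ to 3′ on the gene's strand, and the first base of the core stood at -40, -79, -73, -58 and -35 from the start, in the order printed.
Ifi206: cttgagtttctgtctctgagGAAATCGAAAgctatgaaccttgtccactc
Ifi214: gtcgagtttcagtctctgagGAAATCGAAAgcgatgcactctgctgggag
Ifi213: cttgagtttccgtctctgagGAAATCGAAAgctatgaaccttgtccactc
Ifi208: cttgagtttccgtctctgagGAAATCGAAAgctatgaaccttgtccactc
Ifi203: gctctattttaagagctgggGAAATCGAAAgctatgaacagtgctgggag

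These stretches lie at chr1:173491329-173491378, chr1:173536007-173536056, chr1:173599316-173599365 and chr1:173942498-173942547 on the minus strand for Ifi206, Ifi214, Ifi213 and Ifi203, and at chr1:173673587-173673636 on the plus strand for Ifi208. Those of Ifi213 and Ifi208 differed at 0 of 50 positions, and that of Ifi206 differed from each at 1 position. In myeloid-like cells Ifi213 rose (4.23, SE 0.57, adjusted p = 2.52e-07) and Ifi208, with 3 UMIs there and a CPM below that of GC B-like cells in 6 of 6 libraries, did not pass the test (fitted log2 fold change 1.04, SE 1.10, adjusted p = 0.469). The difference between Ifi213 and Ifi208 was not tested. The myeloid-like sums outside Smc3 wt/- replicate 2 held 17369 to 81277 UMIs. These are too few to read the low level that Ifi208 had in GC B-like cells. Reads of such similar genes can be split between copies by the counting, so values of single PYHIN genes are uncertain to that extent.

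For comparison, 3 members of other families carried the core in these forms, Isg15 with overlapping copies, of which the middle one is in capitals, and Ifit1 and Gbp2 with the core on the opposite strand. The stretch of Ifit1 holds a further copy in lower case, which starts at -104, against -85 for the one in capitals.
Isg15: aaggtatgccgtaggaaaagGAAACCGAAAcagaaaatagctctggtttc
Ifit1: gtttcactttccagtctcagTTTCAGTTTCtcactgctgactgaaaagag
Gbp2: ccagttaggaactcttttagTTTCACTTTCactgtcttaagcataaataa

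They lie at chr4:156200861-156200910 on the minus strand and at chr19:34640784-34640833 and chr3:142620584-142620633 on the plus strand. Of the 45 members, 37 had a promoter window, and 23 of the 37 (62.2%) held the core. It was found in 3.99% of 27025 genes with a window and in 4.28% of those tested between classes. Ifi204, Mx1, Mx2, Oas2, Parp14, Rtp4, Usp18 and Zbp1 had no window. The members were chosen as interferon-induced genes, so this share describes the choice, and a match is not a bound site.

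**Figure D3:**
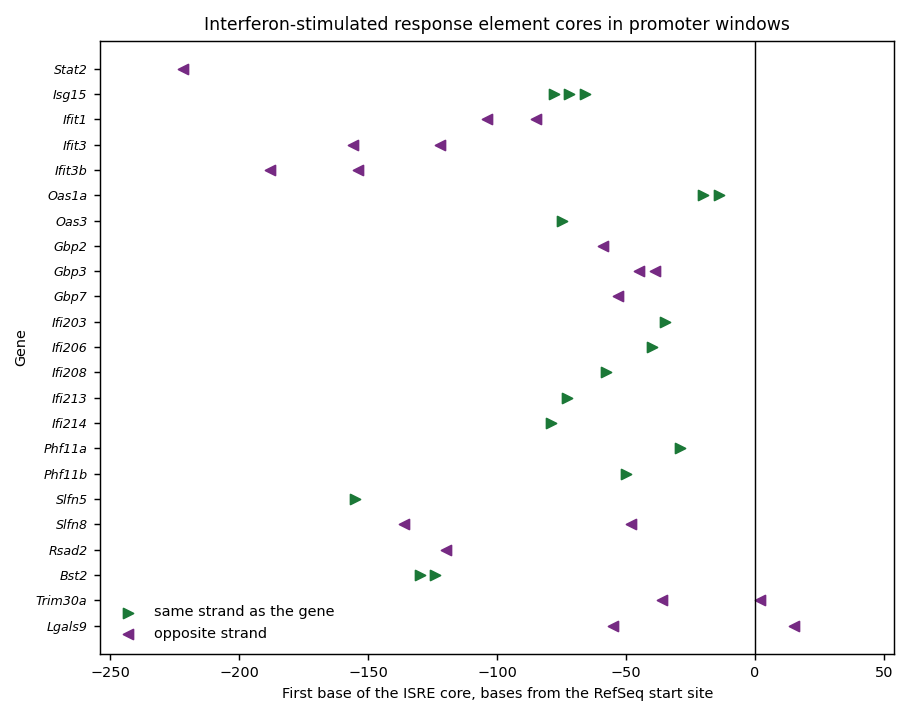
Position of each match to the response element core in the promoter windows of the 23 members that held one, in bases from the RefSeq start site. Triangles pointing right are on the gene's strand and those pointing left on the opposite strand, and the 5 PYHIN genes hold 1 core each on their own strand.

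The Schlafen genes restrain growth of lymphocytes or of viruses. Slfn2 was at 33.3 to 95.7 CPM in GC B-like, 166 to 304 CPM in naive or memory B-like and 367 to 516 CPM in T cell-like cells, and none of these ranges overlapped. The log2 fold changes against GC B-like cells were 2.15 (SE 0.24, adjusted p = 9.32e-09) and 3.09 (SE 0.25, adjusted p = 6.32e-12). Slfn5 had a median of 0.837 CPM in GC B-like and 13.6 CPM in naive or memory B-like cells (4.43, SE 0.37, adjusted p = 3.83e-11), and was also higher in T cell-like (5.66, SE 0.44) and myeloid-like cells (6.74, SE 0.43).

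Among the other effectors, Bst2, or tetherin, which holds budding virus at the cell surface, rose in every class against GC B-like cells, and this included plasma-lineage cells. It was at 15.3 to 44.3 CPM in GC B-like cells, at 47.8 to 89.4 CPM in naive or memory B-like cells and at 132 to 855 CPM in plasma-lineage cells. The log2 fold change of plasma-lineage against GC B-like cells was 3.54 (SE 0.31, adjusted p = 2.32e-11) and was 3.24 without Smc3 wt/- replicate 2, the library at 855 CPM. In T cell-like and myeloid-like cells its log2 fold changes were 2.09 (SE 0.37) and 2.99 (SE 0.40). Zbp1, a sensor of Z-form nucleic acid, followed it in plasma-lineage cells (1.74, SE 0.27, adjusted p = 2.44e-06).

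Sp100, a nuclear body protein, and Phf11b, a chromatin-associated protein, fell in plasma-lineage cells. Sp100 was at 128 to 202 CPM in GC B-like, 289 to 558 CPM in naive or memory B-like and 65.7 to 100 CPM in plasma-lineage cells, with no overlap in either direction (log2 fold changes 1.35, SE 0.16, and -0.98, SE 0.17, adjusted p = 9.56e-06). Phf11b fell from 43.9 to 63.7 CPM in GC B-like cells to 0 to 23.8 CPM in plasma-lineage cells (-1.65, SE 0.26, adjusted p = 2.49e-06). Slfn2 (-0.69, adjusted p = 0.0296) and Ifi206 (-1.27, adjusted p = 0.0324) were lower in 5 of 6 libraries. These calls were lost under 5 and 6 of 14 alternatives, among them leaving out Smc3 wt/- replicate 2, Smc3 wt/wt replicate 1 or Smc3 wt/wt replicate 2 for both genes, Smc3 wt/wt replicate 3 for Slfn2 and Smc3 wt/- replicate 1 for Ifi206.

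Rtp4, a chaperone of membrane receptors, rose in T cell-like cells. It was at 0.673 to 3.89 CPM in GC B-like and 20.1 to 159 CPM in T cell-like cells (log2 fold change 5.77, SE 0.37, adjusted p = 2.17e-14). Samhd1, which depletes nucleotides, changed least among the members called higher in naive or memory B-like cells (0.52, SE 0.18, adjusted p = 0.0179), and its call was lost under 5 of 14 alternatives, among them leaving out Smc3 wt/- replicate 1.

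Upstream of these genes, a receptor gene moved in the same direction. Ifnar1 was higher than in GC B-like cells in naive or memory B-like (2.08, SE 0.22, adjusted p = 2.22e-09), T cell-like (2.4, SE 0.28) and myeloid-like cells (2.05, SE 0.32). Of 16 receptor and signal transduction genes tested, 10 were higher (62.5%, against 27.8% of all genes) and 0 lower in naive or memory B-like cells. In plasma-lineage cells 3 were higher (18.8% against 22.8%) and 7 lower (43.8% against 26.1%). In T cell-like and myeloid-like cells 10 were higher in each (against 20.6% and 20.4% of all genes), and 3 (18.8%) and 1 (6.25%) lower, against 23.9% and 28.8%. These lists were chosen with results of these data known.

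Among the sensors, in naive or memory B-like cells 6 of 10 tested sensors and adaptors were higher (60%, against 27.8% of all genes) and 0 lower, among them Tlr7, the endosomal RNA sensor (4.28, SE 0.64, adjusted p = 1.46e-06), and Ddx58, which encodes RIG-I (3.82, SE 0.30, adjusted p = 1.28e-11). The counts were 4 higher (40%) and 1 lower (10%) in T cell-like cells, against 20.6% and 23.9% of all genes, and 6 (60%) and 0 in myeloid-like cells, against 20.4% and 28.8%. In plasma-lineage cells they were 2 (20%) and 1 (10%), both below the shares of all genes, 22.8% and 26.1%. Of 30 other interferon-induced genes tested, 19 were higher and 0 lower in naive or memory B-like cells, 18 and 1 in T cell-like, 15 and 2 in myeloid-like and 11 and 5 in plasma-lineage cells. The shares higher were 63.3%, 60%, 50% and 36.7%, against 27.8%, 20.6%, 20.4% and 22.8% of all genes, and the shares lower 0%, 3.33%, 6.67% and 16.7%, against 24.6%, 23.9%, 28.8% and 26.1%. The ligands were almost undetected. Ifna1, Ifna2, Ifna4, Ifna5 and Ifnb1 gave 0 UMIs in each of the 5 classes, and Ifng gave 13 UMIs in the 529 T cell-like cells.

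The next question was whether the transcripts were spread evenly or gathered in some cells. Each cell was thinned to 2000 UMIs so that total UMIs were equal, and shallower cells were left out. Of 11489 GC B-like cells, 18.1% had none of the members and 3.97% had at least 5 different ones. Among naive or memory B-like cells these shares were 3.55% and 23.1% of 1100 cells, and among plasma-lineage cells 46.6% and 0.535% of 2057. Of these plasma-lineage cells 1739 came from Smc3 wt/- replicate 2, in which 59.4% of UMIs were from immunoglobulin genes, and the shares were 28% and 2.2% of the 318 cells of the other 5 libraries, with 18.3% to 36.4% per library without a member. T cell-like and myeloid-like cells had at least 5 members in 33.9% of 174 and 26.9% of 528 cells. Of the GC B-like cells, 648 had exactly 4 members and 254 exactly 5, so many lie near that limit.

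A few cells carried many members at once. In the GC B-like class 34 cells had at least 10 members. Of these, 18 were among the 3162 cells of Smc3 wt/wt replicate 2 and 10 among the 1630 of Smc3 wt/- replicate 1. Smc3 wt/- replicates 2 and 3 gave 0 of 336 and 0 of 2956 cells. Of 37 GC B-like cells with a UMI of Ifit3, 43.2% also had Irf7 and 24.3% had Isg15, against 4.55% and 1.77% of the cells without Ifit3. The share with Irf7 was 42.9% of 14 such cells in Smc3 wt/- replicate 1 and 43.5% of 23 in the other 5 libraries. Of 28 naive or memory B-like cells with Ifit3, 35.7% had Irf7, against 2.80% of the rest. Here the share was 71.4% of 7 cells in Smc3 wt/- replicate 1 and 23.8% of 21 in the other 5 libraries.

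**Figure D4:**
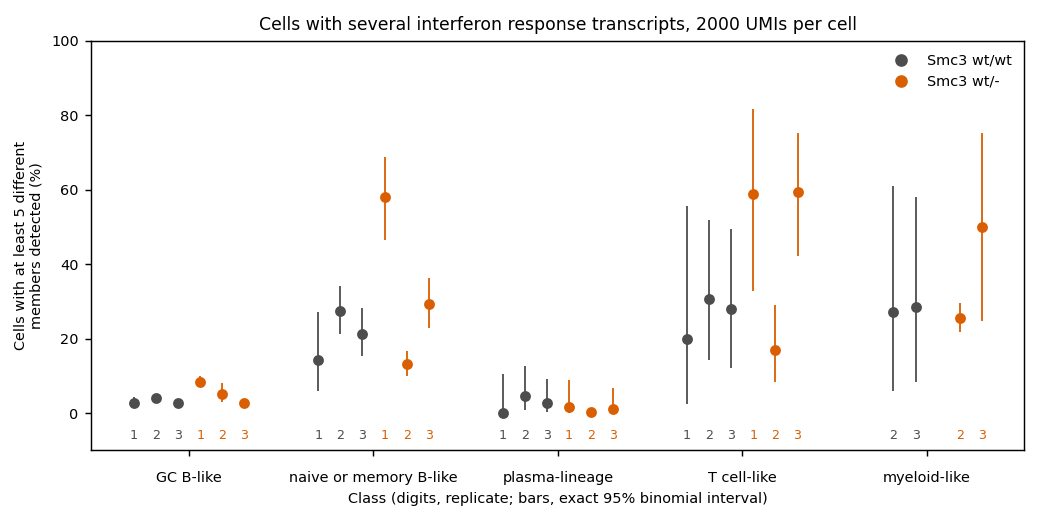
Share of cells with at least 5 different interferon response genes detected after thinning to 2000 UMIs, by class and library, with exact 95% binomial intervals that cover counting error only. Smc3 wt/- replicate 1 is the highest library in both of the first B cell classes, GC B-like and naive or memory B-like, and myeloid-like libraries with under 10 such cells are not shown.

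The comparison the study was built for, Smc3 wt/- against Smc3 wt/wt, was made within each class, with values scaled within that class. No member passed the adjusted p of 0.05 in any of 6 comparisons, by edgeR or by DESeq2, and edgeR called 0% of all genes in each of them (DESeq2 called 2 genes in GC B-like cells and 0 elsewhere). At an unadjusted p under 0.05 edgeR counted 3 of 41 members tested in all kept cells (1.56% of all genes), 3 of 37 in GC B-like (1.81%), 1 of 31 in naive or memory B-like (1.90%), 1 of 14 in plasma-lineage (3.47%), 0 of 16 in T cell-like (2.29%) and 0 of 5 in myeloid-like cells (1.90%). DESeq2 counted 5, 8, 1, 2, 0 and 0 members in the same order, and 355, 234, 33, 159, 13 and 3 of all genes (3%, 2.15%, 0.486%, 2.67%, 0.561% and 0.317% of those tested). The members behind the edgeR counts were Irf9, Lgals9 and Trim30a in all kept and in GC B-like cells, Gbp2 in naive or memory B-like cells and Slfn2 in plasma-lineage cells (log2 fold change 1.05, SE 0.46, unadjusted p = 0.049).

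In GC B-like cells the estimates leaned to higher values in the wt/- libraries, with a median log2 fold change of 0.28 and 31 of 37 members above 0, against a median of -0.00 and 49.2% above 0 among all genes. That median was 0.06 without Smc3 wt/- replicate 1, 0.19 without Smc3 wt/- replicate 2 and 0.65 without Smc3 wt/- replicate 3. The median was thus smaller without replicate 1 or 2 and larger without replicate 3. The GC B-like cells of Smc3 wt/- replicate 2 had the lower GC and higher naive or memory B marker levels given above. The part of these in the median was not tested. The median for naive or memory B-like cells was 0.18, and it was -0.13 without Smc3 wt/- replicate 1.

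The wt/- libraries differed in which of them held the extreme values. In GC B-like cells 16 of 37 members (43.2%) were highest in Smc3 wt/- replicate 1, where 16.9% of all genes were highest, and another 16 in Smc3 wt/- replicate 2, where 34.5% were. For naive or memory B-like cells, 23 of 31 members (74.2%) were highest in replicate 1, against 20.2% of all genes. Replicate 2 held 3 of the highest values there (9.68%, against 21.3% of all genes) and 14 of the lowest (45.2% against 19.5%), and in GC B-like cells 11 of the lowest (29.7% against 34.9%). Smc3 wt/- replicate 3 held the highest value of 0 members in both classes. In T cell-like cells 8 of 16 members (50%) were highest in Smc3 wt/- replicate 1 against 17.6% of all genes, and 7 (43.8%) were lowest in replicate 2 against 16.8%. The T cell-like cells of replicate 2 had 5744 CPM of plasma markers against 249 to 897 CPM in the other libraries, 669 CPM of naive or memory B markers against 1582 to 2007 CPM, and 676 CPM of NK markers against 1072 to 2565 CPM. The part of these in the values, and in the shares of T cell-like cells given later, was not tested.

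Single genes show which members set the library apart. Irf7 in naive or memory B-like cells was at 18.2, 23.1 and 20.6 CPM in the wt/wt libraries and at 96.1, 6.02 and 14.7 CPM in wt/- replicates 1, 2 and 3. Usp18 was at 6.08, 16.4 and 13.3 CPM against 46.3, 2.01 and 5.87 CPM. Ifit3 was at 18.2, 29.8 and 20.6 CPM against 66.9, 3.34 and 9.79 CPM. For each of these genes 1 wt/- library lay above and the other two below all 3 wt/wt libraries, and the log2 fold changes were 0.63 (SE 0.83), 0.09 (SE 0.93) and -0.15 (SE 0.82).

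The same order held for Irf7 in GC B-like cells, at 20.2, 22.1 and 17.6 CPM in the wt/wt and 45, 3.75 and 17.2 CPM in the wt/- libraries (log2 fold change 0.25, SE 0.59, unadjusted p = 0.686 by edgeR). Irf9 was at 6.39, 11 and 8.21 CPM against 18.2, 20.7 and 10.3 CPM (0.83, SE 0.30, unadjusted p = 0.0272, adjusted p = 1). Stat2 was at 10.5, 15.8 and 14.3 CPM against 14.5, 9.39 and 14 CPM (-0.07, SE 0.21). Isg15 was at 6.13, 10.5 and 9.56 CPM against 10.8, 19.2 and 7.55 CPM (0.35, SE 0.35). The groups overlapped for all 4 genes.

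The libraries did not overlap for 4 members in GC B-like cells, 3 higher and 1 lower in wt/-, where 4.23% of all genes were higher and 4.57% lower without overlap. Lgals9, which encodes the lectin galectin-9, was at 8.18, 7.06 and 7.51 CPM in the wt/wt and 17.3, 25.8 and 9.88 CPM in the wt/- libraries (log2 fold change 1.14, SE 0.33, unadjusted p = 0.00909, adjusted p = 1 by edgeR). Without Smc3 wt/- replicate 2 its log2 fold change was 0.84. Trim30a, a regulator of Toll-like receptor signals, was at 14.3, 19.5 and 13.9 CPM against 20.8, 34.7 and 20 CPM (0.59, SE 0.25, unadjusted p = 0.0474).

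Gbp2 was at 2.81, 2.5 and 2.12 CPM against 2.89, 44.1 and 2.92 CPM, and the log2 fold change of 2.52 (SE 1.12, unadjusted p = 0.0572) was 0.28 without Smc3 wt/- replicate 2. Slfn5 was the lower one, at 1.79, 0.944 and 1 CPM against 0.907, 0.469 and 0.292 CPM (-1.04, SE 0.54, unadjusted p = 0.0932). The cells of Smc3 wt/- replicate 2 in this class also had 647 CPM of 19 myeloid marker genes, 17 of them detected, against 171 to 208 CPM with 9 to 15 detected in the other libraries. They had 1051 CPM of naive or memory B markers against 266 to 321 CPM, and 1290 CPM of erythroid markers against 59.5 to 507 CPM. The part of these transcripts in the Gbp2, Lgals9 and Trim30a values was not tested.

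In naive or memory B-like cells Gbp2 was at 12.2, 11.5 and 9.69 CPM in the wt/wt and 22.3, 30.8 and 18.6 CPM in the wt/- libraries, with no overlap (log2 fold change 1.14, SE 0.34, unadjusted p = 0.0074, adjusted p = 1 by edgeR). It was 0.87 without Smc3 wt/- replicate 2. Ifi214 was the lower member without overlap, at 27.4, 28.9 and 26.6 CPM against 18.9, 8.02 and 24.5 CPM (-0.76, SE 0.40, unadjusted p = 0.0834). Of all genes, 3.73% were higher and 3.68% lower without overlap in this class. The cells of Smc3 wt/- replicate 2 in it had 2995 CPM of plasma markers against 1360 to 1599 CPM elsewhere, and 2843 CPM of naive or memory B markers against 3346 to 4057 CPM, and the part of these in the values was not tested.

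In all kept cells Trim30a was the member without overlap, at 15.7, 19.6 and 14.8 CPM against 21.7, 35 and 20.6 CPM (0.62, unadjusted p = 0.0476 by edgeR), where 4.04% of all genes were higher and 4.05% lower without overlap. T cell-like cells had 0 such members, where 3.71% of all genes were higher and 3.54% lower. Sp100 in plasma-lineage cells was at 45.1, 40.4 and 43.8 CPM against 48.9, 61.2 and 45.5 CPM (0.28, SE 0.22, unadjusted p = 0.232 by edgeR), where 4.93% of all genes were higher and 5.03% lower without overlap. Slfn2 in myeloid-like cells was at 542, 649 and 669 CPM against 347, 532 and 403 CPM (-0.50, SE 0.31, unadjusted p = 0.141 by edgeR), where 4.66% were higher and 2.54% lower. The summed myeloid marker level of these cells ran from 16750 CPM in Smc3 wt/- replicate 3 to 89479 CPM in Smc3 wt/- replicate 2. Of the 59 cells of cluster 14, a myeloid-like cluster, 58 were from Smc3 wt/- replicate 2. The part of this in the Slfn2 values was not tested. Bst2 in plasma-lineage cells was at 86.0, 106 and 115 CPM against 83.3, 521 and 124 CPM, so that its log2 fold change of 1.25 (SE 0.62) was -0.01 without Smc3 wt/- replicate 2. That library had 1368 plasma-lineage cells in cluster 6 and 379 in cluster 9, where the other libraries had 10 to 25 and 24 to 69, and its summed plasma marker level in the class was 101310 CPM against 36601 to 63250 CPM. The part of this mix in the Bst2 value was not tested.

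**Figure D5:**
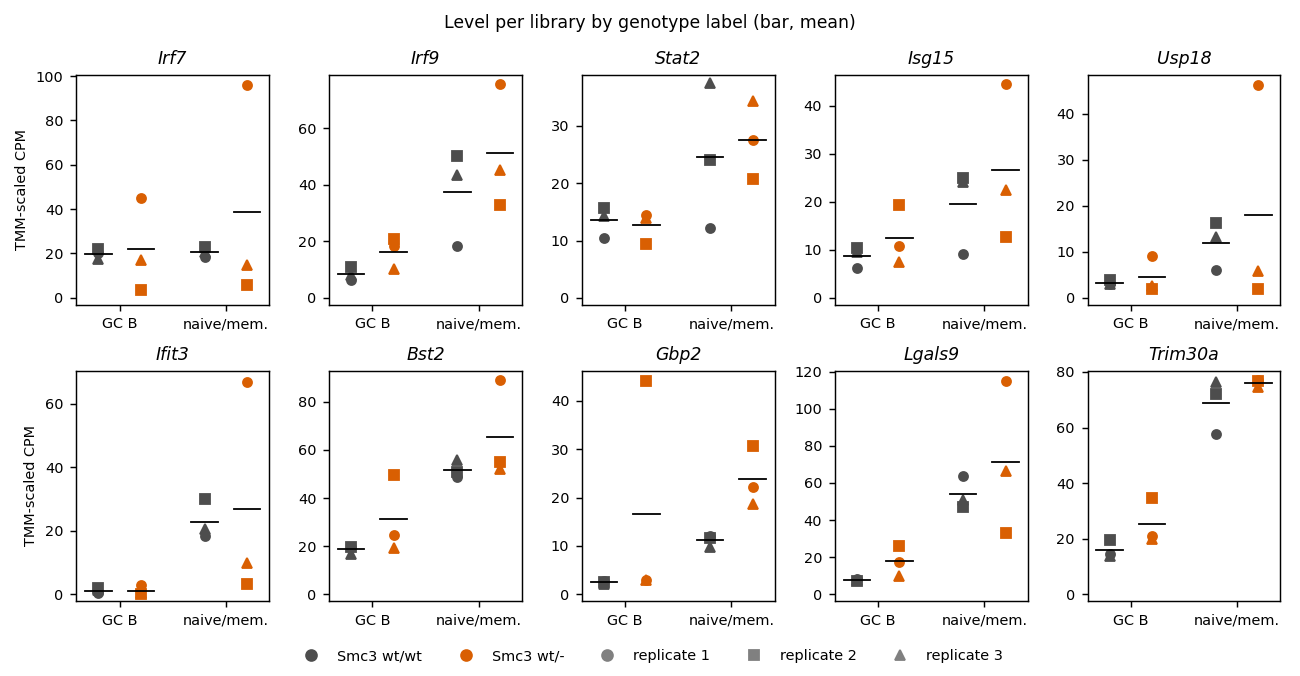
Level of 10 interferon response genes in GC B-like and in naive or memory B-like cells of each library, in TMM-scaled CPM, with the mean of each label as a bar. Circles, squares and triangles are replicates 1, 2 and 3, and for Irf7, Usp18 and Ifit3 in naive or memory B-like cells the wt/- circle is above the other libraries.

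The share of cells with at least 5 members was compared over libraries in the same way. In GC B-like cells it was 2.68%, 4.11% and 2.60% in the wt/wt and 8.40%, 5.06% and 2.81% in the wt/- libraries, a difference of 2.29 percentage points (exact permutation test, two-sided, p = 0.2). The difference was 0.802 points without Smc3 wt/- replicate 1, 0.338 points with 1000 UMIs per cell and 12.4 points with no thinning, where the shares were 20.1% to 43.1% and 42.0% to 46.6%. In naive or memory B-like cells it was 14.3%, 27.4% and 21.2% against 58.0%, 13.2% and 29.3%, a difference of 12.5 points (exact permutation test, p = 0.5) that was 0.285 without Smc3 wt/- replicate 1, 3.24 with 1000 UMIs and 4.84 with no thinning. The 95% interval of the 58.0%, from 46.5% to 68.9%, lay above those of the other 5 libraries. Such intervals cover counting error within a library only, not the spread between libraries.

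T cell-like cells gave 20%, 30.8% and 28% against 58.8%, 16.9% and 59.5%, a difference of 18.8 points (exact permutation test, p = 0.4), from 10 to 59 cells per library. It was 0.495 points with 1000 UMIs, 4.61 with no thinning, 32.9 without Smc3 wt/- replicate 2 and 11.6 without Smc3 wt/- replicate 3. Plasma-lineage cells gave 0 to 4.48% (difference -1.31 points, exact permutation test, p = 0.5), with 0 of 33 cells in Smc3 wt/wt replicate 1. The share in myeloid-like cells could be set for 2 libraries of each label, at 27.3% and 28.6% against 25.5% and 50% (exact permutation test, p = 1). With 3 libraries against 3 the smallest p this test can give is 0.1, and with 2 against 2 it is 0.333, so no share could pass 0.05.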

How the data were processed

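Single-cell 3′ libraries of sorted splenic cells were prepared by the authors with 10x Genomics v2 chemistry, and per the file headers the deposited UMI counts were made with Cell Ranger 3.0.2 (mm10, per the labels). The counts are whole numbers per gene and cell and were not normalized. The submitters' processing notes also name R 4.0.2 and Seurat 4.0.0.

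Of 22939 barcodes, 21568 with at least 500 genes and at most 10% mitochondrial UMIs were kept, and the 721 highest Scrublet doublet scores (0.8% per 1000 barcodes, set per library) were removed. Cells were clustered in Seurat 5.3.0 on 1856 variable genes (30 components, resolution 0.5). These left out members, other listed pathway genes, mitochondrial genes and those of immunoglobulins and ribosomal proteins. The 15 clusters were named from marker genes, and most GC B-like clusters were led by cell cycle genes.

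UMIs were summed per library and class (at least 10 cells), filtered with filterByExpr, TMM-scaled and tested with the quasi-likelihood method of edgeR 4.0.16, with Benjamini-Hochberg adjustment over all genes tested, and checked on simulated counts. DESeq2 1.42.0, other scalings, filters and cell sets, and leaving out each library were alternatives. Shares were compared with exact permutation tests. The members and gene lists were chosen with earlier results of these data known. Genes given per library are Stat2, Irf7, Irf9, Isg15, Ifit3, Usp18 and Bst2, up to 4 members per direction with the largest fold past the threshold and 1 sign in every library, and for genotype up to 4 with the lowest p whose libraries did not overlap. Others named (Gbp7 and Ifi203 by library, Ifi47, Ifi206, Ifit1, Oasl2, Slfn2 between classes, Samhd1 and pathway genes) were chosen after their values were seen. GC B-like sums ranged from 2354410 to 26521133 UMIs per library and myeloid-like sums from 17369 to 2033037, so low members in the latter rest on few UMIs. Fewer cells of a kind within a class and less RNA per cell cannot be told apart in these sums. Values of 1 further gene are not reported here.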

Additional observations from a re-analysis of the deposited data

Results flagged for a closer look

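Of 35 sets of 6 library values (the 7 members given per library, in 5 classes), 11 had a library far from the others by Dixon's test at the 95% level. The nominal rate of about 1 in 20 holds for independent, normally distributed values. These sets share the same libraries and some rest on few UMIs, so 11 of 35 cannot be set against that rate. Smc3 wt/- replicate 1 was the far library, always high, in 6 of the 11. These were Irf7 in naive or memory B-like cells at 96.2 CPM (next 23.3), Usp18 in the same cells at 46.4 CPM (next 16.5) and in GC B-like cells at 8.31 CPM (next 3.55), Bst2 in naive or memory B-like cells at 89.4 CPM (next 56.2), Ifit3 in T cell-like cells at 114 CPM (next 32.2) and Stat2 in myeloid-like cells at 91.4 CPM (next 23.9).

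Smc3 wt/- replicate 2 was far above the others for Bst2 in plasma-lineage cells at 855 CPM (next 202) and in GC B-like cells at 44.3 CPM (next 22.5), and for Isg15 in GC B-like cells at 17.1 CPM (next 9.81). Isg15 in myeloid-like cells of Smc3 wt/wt replicate 2 was at 193 CPM (next 68.5), and Ifit3 in plasma-lineage cells of Smc3 wt/wt replicate 3 at 7.07 CPM (next 1.19).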

How the results depend on the processing

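None of the fold changes between classes that were called and recomputed changed direction (those not called were not recomputed), and no member was called between the genotypes under any alternative that was run. In plasma-lineage cells the number of members higher than in GC B-like cells went from 5 to 10 without Smc3 wt/- replicate 2 (5 to 10 over all libraries left out), and the number lower from 6 to 10 with no filter on low counts and to 3 without Smc3 wt/wt replicate 2 (3 to 7). In myeloid-like cells 1 member was lower, against 0: Sp100 when cells with markers of another lineage were left out and Ifi209 without Smc3 wt/- replicate 1 (0 to 1). Without a library, the median log2 fold change between genotypes ran from 0.0567 to 0.646 in GC B-like, from 0.0492 to 0.364 in plasma-lineage and from -0.10 to 0.96 in myeloid-like cells, and with no filter on low counts it was 0.00156 in plasma-lineage cells. The difference in the share of member-rich myeloid-like cells changed from 9.84 to -5.17 points at a limit of 4 members and to -0.0436 at 6. The causes of these changes were not tested. Counting the haemoglobin-led cluster as GC B-like, an alternative chosen after seeing the data, left 32 members higher in naive or memory B-like cells and 0 called between genotypes.

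The replicate numbers of the 2 labels are not stated to pair the libraries, and in no class did the deviations of all 3 same-numbered pairs correlate above 0.1 (in GC B-like cells 0.223, 0.0734 and 0.185). Every wt/wt library correlated best with the wt/- library of its own number in myeloid-like cells and in no other class, which is a hint from the data and not from the design. With the replicate number as a block, 0 members were called and the medians were 0.26 in GC B-like, 0.04 in naive or memory B-like and 0.295 in plasma-lineage cells. The block changed no member's call. For the share in GC B-like cells, higher in the wt/- library of all 3 pairs, the permutation within pairs gave p = 0.25, the smallest that 3 pairs allow, so it could change no call. The genotype fit of myeloid-like cells with at least 1000 genes was not run, because a library fell below 10 cells, and neither were its shares without a library of a label that had only 2. The fewest members passed the filter between genotypes in myeloid-like (5), plasma-lineage (14) and T cell-like cells (16).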
